A study of Bos taurus with 46 samples.

Results

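The 10 genes described here were the most counted of a narrow run of Ensembl cattle gene identifiers, from ENSBTAG00000043540 to ENSBTAG00000043590. They were selected on their total count over all 46 libraries, so the totals below are a description of that choice. Of the 27607 genes in the Ensembl count table, 22886 had at least 1 read, 45 had an identifier in the run and 26 of those 45 had a read. The 10 genes held 9.21% of all reads that were assigned to an Ensembl gene, and each ranked among the 14 most counted genes of the table. The most counted gene of the whole table, ENSBTAG00000043561, had 30225793 reads in total. ENSBTAG00000043560 followed with 11853265 reads, ENSBTAG00000043584 with 8478329, ENSBTAG00000043550 with 7712725, ENSBTAG00000043558 with 7384194 and ENSBTAG00000043577 with 6775124. ENSBTAG00000043570 had 6269383 reads, ENSBTAG00000043571 had 5096629, ENSBTAG00000043556 had 4891106 and ENSBTAG00000043563, the last gene inside the selection, had 4620941. The first gene outside it, ENSBTAG00000043568, had 2860216 reads, and the next had 1330289.

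The libraries came from leukocytes of tail vein blood, taken as the buffy coat after lysis of red cells, of 23 pregnant Angus crossbred heifers of about 18 to 20 months of age. Each heifer was bled on day 55 (D55) and on day 105 (D105) of gestation. Pregnancies came from artificial insemination (AI, 8 heifers) or from transfer of in vitro produced (IVP) embryos, whose fetuses were classed at D105 by weight against the AI fetuses: 6 heifers carried fetuses of normal size (IVP-Normal) and 9 carried overgrown fetuses with large offspring syndrome (IVP-LOS), a condition of excessive fetal growth. The IVP embryos came from oocytes of Angus or Angus crossbred ovaries and semen of a single Brahman (Bos taurus indicus) bull. They were transferred in pairs. AI heifers carried 1 fetus each, while some heifers of both IVP groups carried 2. Each library is 1 heifer on 1 day, with no pooling. The largest IVP-LOS fetuses were those of heifers 604 and 664, with 2 fetuses in 604, and the study set this pair against all other heifers. The study also saw this pair stand apart in a clustering of the same libraries, so a difference in it is not independent evidence.

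The mitochondrion carries a small circular genome of its own. It encodes subunits of respiratory chain complexes I, III and IV and of the ATP synthase, with the ribosomal and transfer RNAs needed to translate them in the organelle. The other subunits, and the enzymes that copy and transcribe the mitochondrial genome, are encoded in the nucleus and imported. Mitochondrial transcripts carry poly(A) tails and are often among the most abundant RNAs of a cell, and blood leukocytes differ in how much they hold. The run of identifiers was put forward as likely mitochondrial. The files do not pair these identifiers with names or positions, so the genes are named here by identifier alone and their roles were not checked. In the NCBI table, which counted the same libraries on 30675 genes, 0 of the 37 genes that RefSeq places on the cattle mitochondrial genome matched a gene name.

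Depth was similar across the series. Between 20455975 and 23623465 reads per library were assigned to Ensembl genes, and each of the 10 genes had at least 47380 reads in every library, so counting error was small beside the spread between heifers. All D55 libraries and the D105 IVP-Normal libraries belong to a set whose names carry the word New (29 libraries), and the D105 libraries of AI and IVP-LOS to a set named BACKUP (17 libraries). Day and set therefore cannot be told apart in AI and IVP-LOS, nor can set and group on D105 between IVP-Normal and the other groups. All marker genes present of the neutrophil (6), monocyte (8), T cell (8), B cell (8) and natural killer (7) lists had reads in all 46 libraries. Of the 8 platelet genes 0 to 1 were at 0, and of the 8 erythroid genes 3 to 5. At this depth, having reads does not measure which cells a library holds.

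The share of Ensembl gene reads that fell on the 10 genes together was between 5.33% and 27.2%, with a median of 7.93%. On D55 it ran in AI from 6.23% through a median of 9.85% to 13.0%, in IVP-Normal from 5.97% through 7.55% to 12.02%, and in IVP-LOS from 6.39% through 7.30% to 10.2%. The 3 groups overlapped throughout. On D105 it ran in AI from 5.93% through 7.19% to 15.0%, in IVP-Normal from 6.54% through 9.07% to 10.4%, and in IVP-LOS from 5.33% through 10.02% to 27.2%. Both the lowest and the highest share of the series were thus found in IVP-LOS on D105. The means on D55 were 9.35% ± 2.26 in AI (SD, n = 8), 8.05% ± 2.24 in IVP-Normal (SD, n = 6) and 7.54% ± 1.19 in IVP-LOS (SD, n = 9), and on D105 8.33% ± 3.07, 8.68% ± 1.46 and 12.4% ± 8.08. Without heifers 604 and 664 the D105 mean of IVP-LOS was 8.50% ± 2.84 (SD, n = 7).

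**Figure D1:**
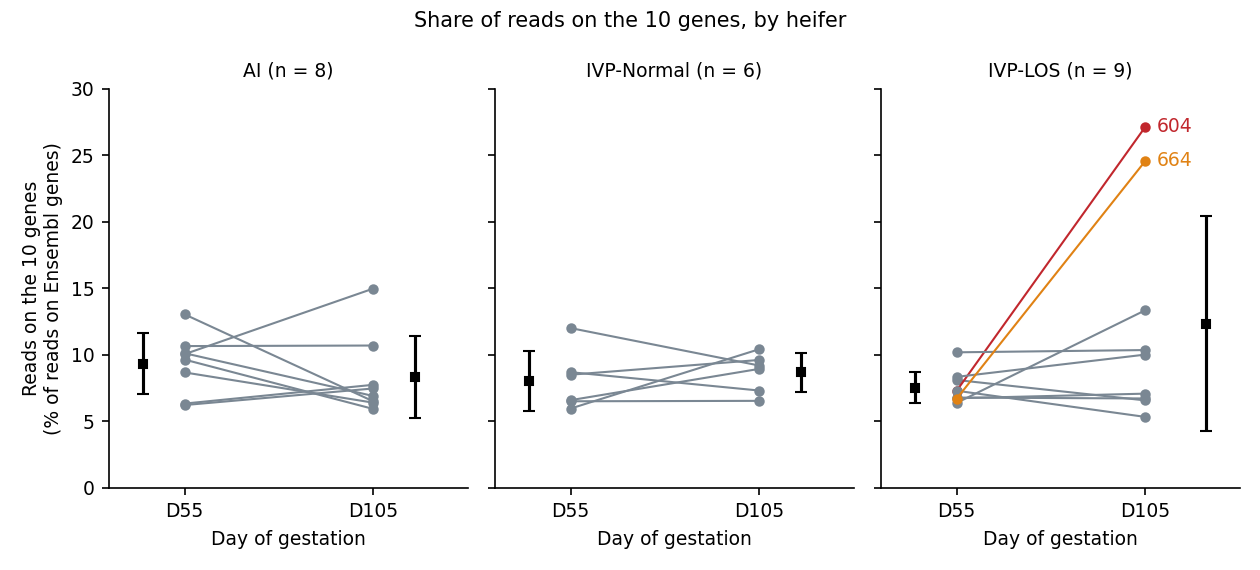
Share of Ensembl gene reads on the 10 genes (y axis, percent) on D55 and D105 of gestation (x axis), with 1 line per heifer and 1 panel per group; squares and bars are the mean and SD. Heifers 604 and 664 end at 27.2% and 24.6%, above the other 21 heifers, which lie between 5.33% and 15.0% on D105.

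Heifer by heifer, the share was higher on D105 than on D55 in 14 of 23: in 4 of 8 AI, 4 of 6 IVP-Normal and 6 of 9 IVP-LOS heifers. Heifer 604 went from 7.31% to 27.2%, or 3.72-fold, and heifer 664 from 6.71% to 24.6%, or 3.66-fold. The next largest rise was 2.09-fold in IVP-LOS heifer 557, from 6.39% to 13.4%. AI heifer 517 went from 10.1% to 15.0%, the highest D105 share outside the pair. The largest drop was in AI heifer 606, from 13.0%, the highest share of D55, to 6.50%, which is 0.498 of the earlier value. On D55 heifers 604 and 664 ranked 13th and 17th of 23, and on D105 they ranked first and second.

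Across heifers, levels on D55 did not carry over to D105 as they did for many other genes. With log2 CPM of each gene (counts scaled to library size) correlated between days over the 23 heifers, 0 of the 10 genes passed a false discovery rate (FDR) of 0.05, beside 31.2% of all genes tested (permutation test of Pearson's r, two-sided). At an unadjusted p under 0.05 the count was also 0 of 10, by Pearson's r and by Spearman's rho. The 10 coefficients ran from -0.22 to 0.22 with a median of -0.15, against a median of 0.33 over all genes. Without heifers 604 and 664 the 10 ran from -0.08 to 0.45 with a median of 0.04, against 0.35 over all genes.

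Among themselves the 10 genes, apart from ENSBTAG00000043570, kept similar proportions, while their order below the second place changed between libraries. ENSBTAG00000043561 was first and ENSBTAG00000043560 second in all 46 libraries, and ENSBTAG00000043584 was the third in 35. As a share of the reads on the 10 genes, ENSBTAG00000043561 took between 28.5% and 35.8%, and its coefficient of variation over the libraries was 4.50%. The corresponding value was 4.44% for ENSBTAG00000043560 and reached 12.2% for ENSBTAG00000043563. ENSBTAG00000043570 stood apart with 26.1%: it took 3.28% of the reads of the 10 genes in AI heifer 533 on D105 and 10.8% in heifer 664 on D105. Over the 21 heifers without the pair, correlations between the 10 genes were taken on log2 of their share of gene reads. They ran from 0.81 to 0.98 on D55 and from 0.69 to 0.99 on D105 (45 gene pairs, described without a test because the genes share their libraries). On both days the lowest value was that of ENSBTAG00000043570 with ENSBTAG00000043563.

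The leading gene, ENSBTAG00000043561, held on D55 from 2.03% through a median of 3.22% to 4.28% of gene reads in AI, from 2.099% through 2.60% to 3.87% in IVP-Normal and from 2.18% through 2.30% to 3.12% in IVP-LOS. On D105 it held from 2.02% through 2.40% to 4.76% in AI, from 2.08% through 2.90% to 3.44% in IVP-Normal and from 1.81% through 3.02% to 8.82% in IVP-LOS. The groups overlapped on both days, and the top of IVP-LOS on D105 was heifer 604. ENSBTAG00000043570, the most variable of the 10, held on D55 from 0.262% through 0.573% to 0.901% in AI, from 0.331% through 0.502% to 0.921% in IVP-Normal and from 0.270% through 0.402% to 0.767% in IVP-LOS. On D105 it held from 0.222% through 0.402% to 1.119% in AI, from 0.431% through 0.547% to 0.807% in IVP-Normal and from 0.220% through 0.531% to 2.66% in IVP-LOS. The groups overlapped again, with heifer 664 at the top. In bulk libraries of this kind, fewer cells of a type and less RNA per cell cannot be told apart.

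The change over gestation was tested within each group with edgeR's quasi-likelihood test on the counts, with FDR over all genes tested. In AI 0 of the 10 genes passed FDR 0.05, beside 8.43% of all genes, and their log2 fold changes on D105 over D55 ran from -0.28 to 0.03. At an unadjusted p under 0.05 the count in AI was also 0. In IVP-Normal, whose libraries all belong to one set, 0 of 10 passed, beside 2.03% of all genes, with log2 fold changes from 0.04 to 0.26 and 0 at an unadjusted p under 0.05. The neutrophil markers differed between days in the NCBI table. In AI, where day and library set go together, 6 of 6 tested were higher on D105 (median log2 fold change 2.91), beside 9.95% of all genes called. In IVP-Normal 4 of 6 were higher (median 2.43), beside 2.45%. In IVP-LOS 0 of 6 passed, with a median of 2.31, beside 0.251%. The part of these markers in the values of the 10 genes was not tested.

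In IVP-LOS 0 of 10 passed as well, beside 0.101% of all genes (lowest FDR 0.202). All 10 were higher on D105, by 0.69 (ENSBTAG00000043563) to 1.37 (ENSBTAG00000043570) on the log2 scale. All 10 also had an unadjusted p under 0.05, beside 1911 of 15163 genes of the NCBI table in the same comparison. The 10 genes move together within a library, so these are not 10 separate observations. When the heifer was kept as a block, the median log2 fold change moved from 0.996 to 0.63, with 1 gene at an unadjusted p under 0.05 and a lowest FDR of 0.282. A fit of all 46 libraries together, which shares 1 estimate of the spread among groups, called 7 of the 10. The 0.101% above belongs to the fit of IVP-LOS alone, so these 7 have no share of all genes beside them. How unusual 7 of 10 is in that fit therefore cannot be read here. Without heifers 604 and 664 the log2 fold changes ran from 0.08 to 0.31 and 0 had an unadjusted p under 0.05.

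The change over gestation was then compared between groups as an interaction. For IVP-LOS against AI, 0 of 10 genes passed, beside 0.0% of all genes. The differences ran from 0.95 to 1.67 log2 units and were positive in 10 of 10, with a lowest FDR of 0.838. All 10 had an unadjusted p under 0.05, beside 795 of 16018 genes of the NCBI table. Because the 10 genes move together within a library, they are not separate observations. With the heifer as a block the differences ran from 0.63 to 1.04 and 0 had an unadjusted p under 0.05. Without heifers 604 and 664 they ran from 0.22 to 0.40. For IVP-Normal against AI 0 of 10 passed, beside 0.0% of all genes, with differences from 0.15 to 0.51. Between the days the library set changed in AI but not in IVP-Normal, so these differences cannot be told apart from the set.

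Between groups on 1 day no gene of the 10 passed either. On D55 the log2 fold changes over AI ran from -0.38 to -0.14 in IVP-Normal and from -0.43 to -0.18 in IVP-LOS, and the IVP-LOS values over IVP-Normal ran from -0.24 to 0.08. In each of these 3 comparisons 0 of 10 passed FDR 0.05 in edgeR, beside 0.0% of all genes. All 10 genes were thus on the lower side in both IVP groups on D55. They move together within a library, so these are not 10 separate observations. Between AI and IVP-LOS 7 of 10 had an unadjusted p under 0.05, although the lowest FDR was 0.614. That number was 1 of 10 without heifers 604 and 664 and 0 of 10 in the fit of all 46 libraries, with log2 fold changes of -0.39 to -0.17 in the former. Over all genes the counts at an unadjusted p under 0.05 were 1278, 1128 and 690 in the order above, and DESeq2 called 11, 0 and 2 genes, none of them among the 10. The AI libraries are shared by both comparisons with AI.

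On D105 the values over AI ran from -0.04 to 0.36 in IVP-Normal and from 0.68 to 1.29 in IVP-LOS, and the IVP-LOS values over IVP-Normal ran from 0.56 to 0.92. Again 0 of 10 passed in each, beside 0.0% of all genes, with at most 1 of the 10 at an unadjusted p under 0.05. Over all genes 1719, 749 and 416 had an unadjusted p under 0.05, and DESeq2 called 3, 17 and 7 genes. Without heifers 604 and 664 the IVP-LOS values fell to between -0.06 and 0.11 over AI and between -0.36 and 0.13 over IVP-Normal.

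**Figure D2:**
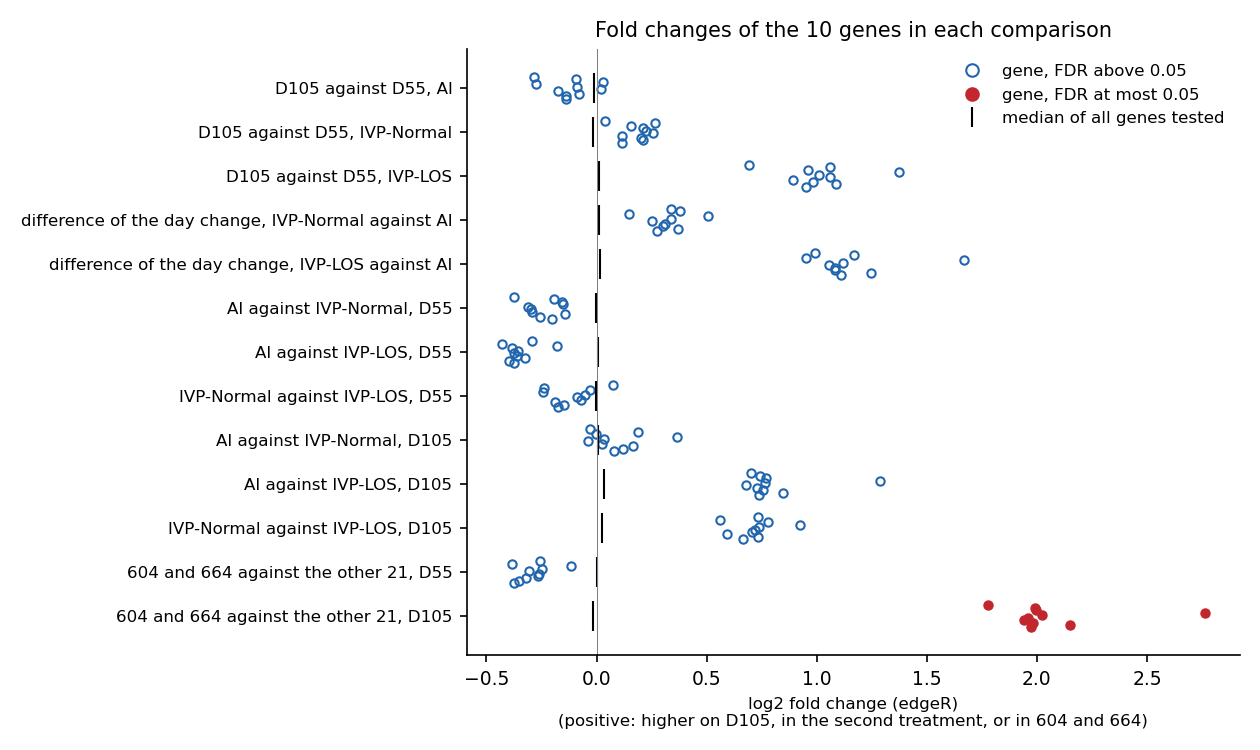
log2 fold changes of the 10 genes (x axis, edgeR) in each of the 13 comparisons (y axis); open points did not pass FDR 0.05, filled points did, and black ticks mark the median of all genes tested. Points pass the threshold in the comparison of heifers 604 and 664 with the other 21 on D105, at 1.78 to 2.76, and in no other row.

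On D105 the pair 604 and 664 stood above the other 21 heifers in all 10 genes, and on D55 no gene of the 10 passed. On D105 the log2 fold changes ran from 1.78 (ENSBTAG00000043563, SE 0.23) to 2.76 (ENSBTAG00000043570, SE 0.38) with a median of 1.99, and all 10 passed with FDR between 5.90243e-06 and 3.24069e-05. Beside them 14.8% of all genes passed in the same direction. The 10 genes also passed when 604 was left out, when 664 was left out, and among the BACKUP libraries alone, with FDR of at most 0.00579 over the alternatives. On D55 0 of 10 passed, beside 0.0396% of all genes, with log2 fold changes from -0.38 to -0.12 and 0 at an unadjusted p under 0.05.

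These fold changes are relative to a scaling that centres the typical gene. With library sizes alone, without scaling factors, the median of all genes was -0.47 log2 units in the pair, and the 10 genes ran from 1.34 to 2.33 and still passed. The split of all called genes moved with that choice, from 2244 higher and 1600 lower to 473 higher and 6477 lower. A large share of reads on a few genes leaves fewer reads for the rest, so the direction of genes near the median in this pair depends on the scaling.

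On the plain scale of read shares, ENSBTAG00000043561 took 8.82% of gene reads in heifer 604 and 7.01% in heifer 664, against 2.75% ± 0.79 in the other 21 (SD), which is 3.21- and 2.55-fold. The highest of the other 21 was heifer 517 with 4.76%. ENSBTAG00000043560 took 3.75% and 3.25% against 1.07% ± 0.34, and ENSBTAG00000043584 took 2.37% and 2.17% against 0.785% ± 0.236. In both genes the pair stood above every other heifer. ENSBTAG00000043570 took 2.51% and 2.66% against 0.515% ± 0.244, which is 4.87- and 5.16-fold and the largest excess of the 10. Compared with their own D55 values, heifers 604 and 664 were 4.61- and 6.81-fold higher in this gene. The smallest excess of heifer 604 was in ENSBTAG00000043563, with 0.929% against 0.410% ± 0.112 (2.26-fold), and heifer 664 had 1.14% there (2.78-fold). In the remaining 5 genes, ENSBTAG00000043550, ENSBTAG00000043558, ENSBTAG00000043577, ENSBTAG00000043571 and ENSBTAG00000043556, the excess was between 2.66- and 3.18-fold in both heifers. For each of the 10 genes, 0 of the other 21 reached the lower heifer of the pair, a separation that 1.19% of the 15197 genes tested also had on this scale.

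**Figure D3:**
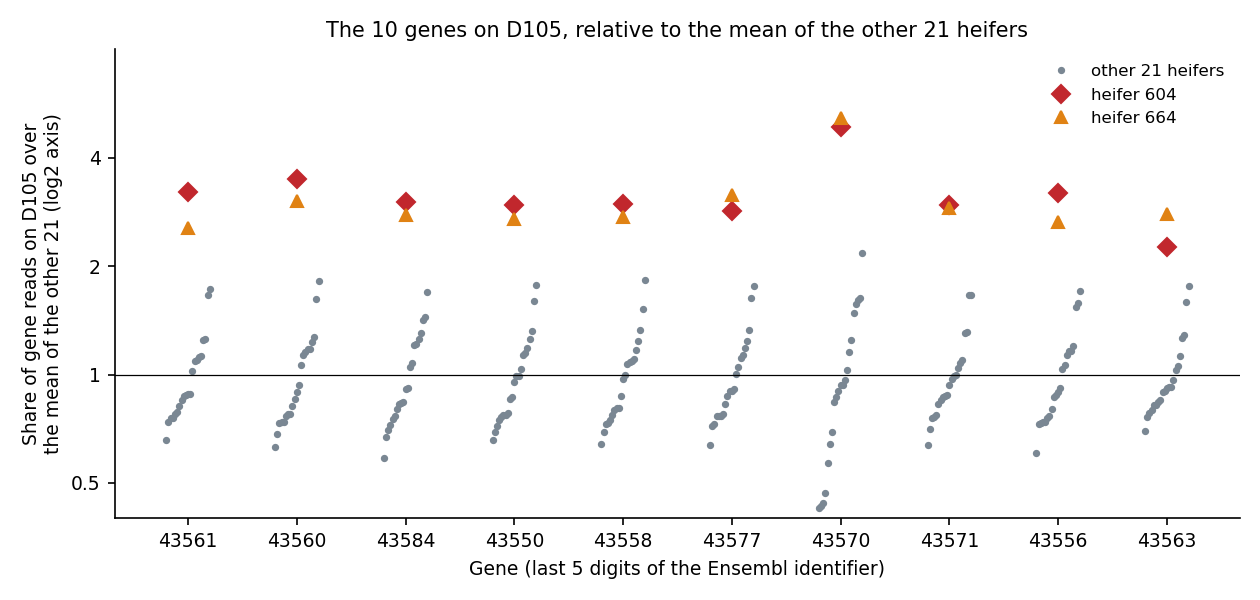
Share of gene reads of each of the 10 genes on D105, divided by the mean of the other 21 heifers (y axis, log2 axis), by gene (x axis, last digits of the identifier); grey points are the other 21 heifers in rising order. The pair lies above every grey point in each gene, farthest in ENSBTAG00000043570 at 4.87 and 5.16.

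The nuclear partners of the respiratory chain were read from the NCBI table, where 21.1% of 16841 genes tested passed in the pair on D105 (1954 higher, 1596 lower). Of complex I, the entry point of electrons from NADH, 21 of 37 nuclear subunits were higher and 0 lower, with a median log2 fold change of 0.43. The counts were 4 of 9 for complex III (median 0.37), 6 of 10 for complex IV (median 0.32) and 8 of 17 for complex V, the ATP synthase (median 0.30), again with 0 lower. Of the proteins that copy, transcribe and process mitochondrial DNA and RNA, 7 of 29 were higher and 1 was lower (median 0.25), and 3 were higher with library sizes alone. The nuclear lists thus moved by much less than the 10 genes, whose median was 1.99. With 604 or 664 left out, 9 and 3 complex I genes and 0 complex IV genes passed, with medians of 0.52 and 0.30 for complex I and of 0.36 and 0.29 for complex IV. Over all genes the number higher fell as well, from 1954 to 433 and 635.

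Single genes give the scale of this, in CPM after TMM scaling. NDUFA1, a small membrane subunit of complex I, was at 11.1 and 10.2 CPM in heifers 604 and 664 against 3.75 to 7.66 in the other 21, with a log2 fold change of 0.97. NDUFS5, another complex I subunit, was at 106.2 and 107.8 CPM against 47.5 to 85.1, with a log2 fold change of 0.74. UQCR11, a small subunit of complex III, was at 48.1 and 54.5 CPM against 22.5 to 38.4. In these 3 genes the pair lay above all the others, as it did in 8.22% of 14073 NCBI genes. COX6B1 of complex IV was at 129.5 and 128.1 CPM against 74.97 to 111.7, and ATP5MPL, a small membrane protein of the ATP synthase, at 126.6 and 127.1 CPM against 45.98 to 90.6. TRMT10C, a subunit of the enzyme that cuts mitochondrial precursor RNA at transfer RNAs, was at 24.96 and 27.5 CPM against 15.9 to 22.1. REXO2, a mitochondrial exonuclease that degrades short RNA, was at 35.6 CPM in heifer 604 but at 16.9 in heifer 664, within the 12.4 to 19.1 of the others. In AI over gestation, where none of the 10 genes passed, 1 of 37 complex I subunits was higher (NDUFV3, log2 fold change 0.29) and 1 of 29 genes of the mitochondrial DNA and RNA list was lower (the transcription elongation factor TEFM, log2 fold change -0.64), smaller shares than the 9.95% called over all NCBI genes.

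Markers of blood cell types moved in the pair too. Of the neutrophil markers 5 of 6 were lower (median log2 fold change -3.95). Summed over the list they reached 305 and 378 CPM in heifers 604 and 664, against 654 to 12012 in the other 21, and none was at 0. Of the monocyte markers 6 of 8 were lower (median -2.64), at 224 and 417 CPM against 621 to 6389. Of the B cell markers 3 of 8 were higher (median 0.74), at 5486 and 6858 CPM against 1697 to 6204, so heifer 604 lay inside the range of the others. Of the platelet markers 6 of 8 were higher (median 1.98), which rested on heifer 604 with 6727 CPM. Heifer 664 was at 931 CPM, inside the 320 to 1750 of the others, and with 604 left out 0 of the platelet genes passed. Of the T cell markers 1 of 8 was lower, of the natural killer markers 0 of 7 passed, and of the erythroid markers 1 of 3 was higher. With 604 or 664 left out, the genes called higher in the whole table fell from 1954 to 433 and 635, and no neutrophil, monocyte, T cell or B cell marker passed. The sizes of change were kept in the myeloid lists, with a neutrophil median of -3.85 and -3.97 and a monocyte median of -2.52 and -2.80 without 604 and without 664. The B cell median was 0.90 and 0.62. The part of cell composition in the values of the 10 genes was not tested.

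**Figure D4:**
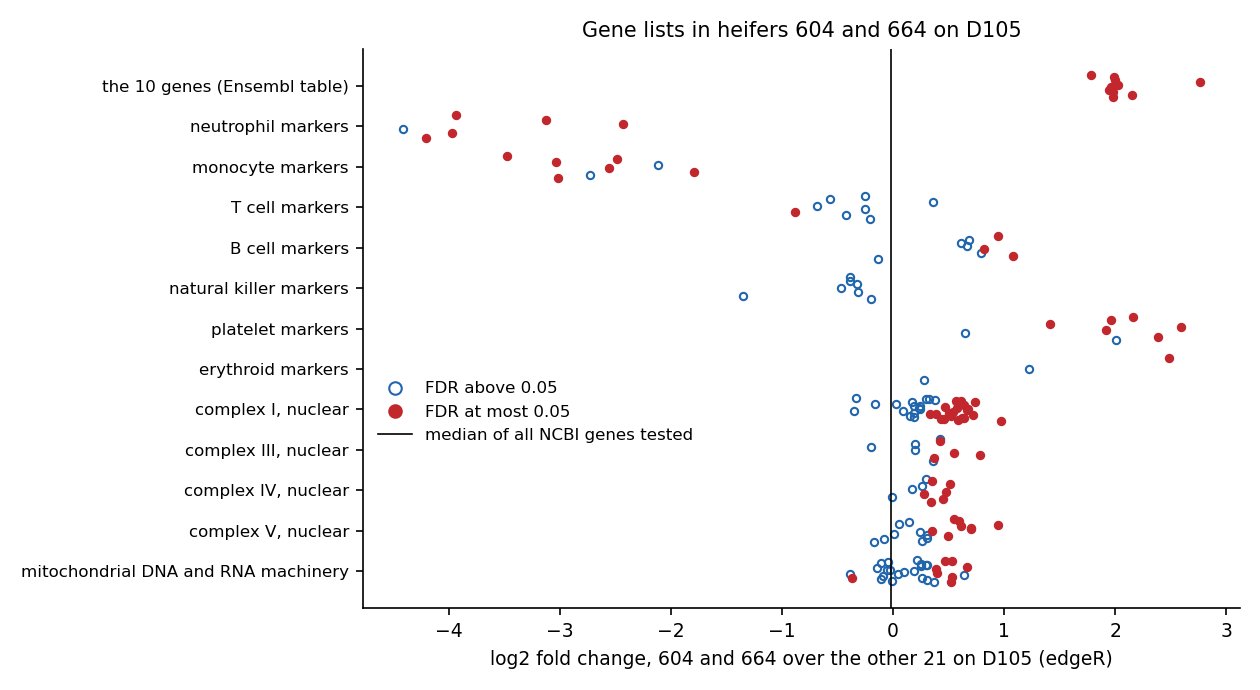
log2 fold change of heifers 604 and 664 over the other 21 on D105 (x axis, edgeR) for the 10 genes and for the genes of each nuclear and marker list (y axis); filled points passed FDR 0.05 and the line is the median of all NCBI genes tested. The 10 genes lie at 1.78 to 2.76, the nuclear respiratory chain lists have medians of 0.30 to 0.43, and neutrophil and monocyte markers lie far to the left.

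The NCBI table has a line for reads that fell on no gene, the no-feature line, where reads on genes outside the NCBI annotation would be counted. The difference between the no-feature reads of the NCBI and the Ensembl table rose by 0.984 reads per read on the 10 genes over the D55 libraries, by 1.09 over all D105 libraries and by 0.9997 over those of the other 21 heifers. The NCBI no-feature reads themselves rose by 0.673, 0.720 and 0.882 reads per read on the 10 genes in the same sets. On D105 the NCBI no-feature share was 32.4% in heifer 604 and 30.4% in heifer 664, against 20.2% to 25.9% in the other 21. On D55 it ran from 19.6% to 26.2%. The pair was thus the top of the series by this measure also. If every read of the 10 genes is taken to be a no-feature read in the NCBI table, they made up 53.0% of that line in heifer 604 on D105, 50.1% in heifer 664 and between 13.96% and 34.5% in the other 44 libraries. With those reads taken out, the no-feature share was 18.4% and 17.9% in the pair, inside the 17.0% to 21.04% of the other 21.

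In the Ensembl table, where the 10 genes are counted, the order was the opposite. The no-feature share was 21.2% and 21.7% in heifers 604 and 664 and 24.1% to 28.2% in the other 21 on D105. Reads that overlapped more than 1 Ensembl gene were 2.89% and 2.66% in the pair against 1.36% to 2.02% in the other 44 libraries. Reads assigned to NCBI genes were fewest in the pair, with 18692653 in heifer 604 and 19641136 in heifer 664 against at least 21775579 in the other D105 libraries. The 10 genes held 6243908 and 5699585 reads there, against 1160487 to 3467027 in the other libraries.

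**Figure D5:**
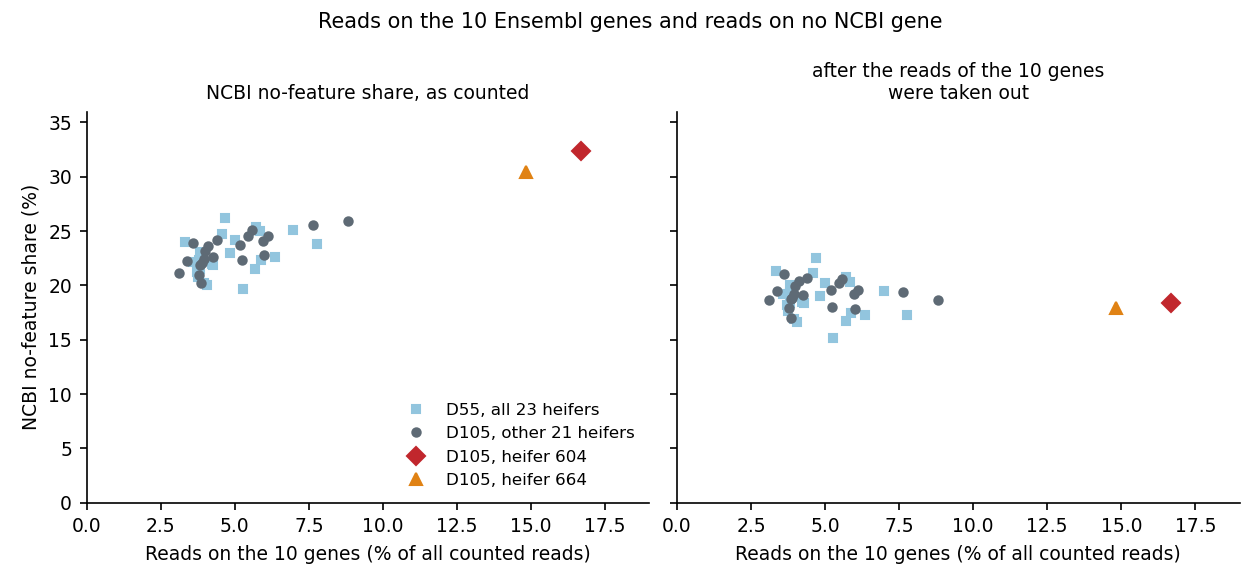
NCBI no-feature share (y axis, percent of all counted reads) against the share of all counted reads on the 10 Ensembl genes (x axis, percent), as counted (left) and after the reads of the 10 genes were taken out (right), with 1 point per library. Heifers 604 and 664 on D105 lie at 32.4% and 30.4% on the left and at 18.4% and 17.9% on the right.

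The relation between the 2 tables was tested gene by gene over heifers, by permutation of Pearson's r between log2 CPM and the NCBI no-feature share. Because the reads of the 10 genes are likely part of that share, the relation holds in part by construction. On D105 all 10 passed FDR 0.05 over the 23 heifers, beside 33.9% of all genes, with the pair standing as a separate cluster. Over the other 21 heifers 8 of 10 passed, beside 0.741% of all genes, with r from 0.66 to 0.79. The pair is also the one farthest from the median share, so this is the value without the 2 farthest libraries as well. For the summed level of the 10 genes, Pearson's r was 0.770 and Spearman's rho 0.778 over these 21 heifers. Within the BACKUP set without the pair r was 0.88 and rho 0.871 (15 heifers), and within the New set r was 0.519 and rho 0.486 (6 heifers), all given without a test.

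On D55 0 of 10 passed, beside 2.73% of all genes, with r from 0.33 to 0.52. At an unadjusted p under 0.05 in this permutation test there were 5 of 10, beside 2407 of 13018 genes. With Spearman's rho there were 7 of 10, beside 2199 of 13018. The summed level had an r of 0.448 and a rho of 0.415. When the reads of the 10 genes were first taken out of the no-feature share, 0 of 10 passed on either day. Over all genes 2236 of 13018 passed on D55, against 13 of 12949 on D105 and 16 there without the pair. With so few genes passing on D105, the 0 of 10 says little for that day. On D55 r then ran from -0.21 to 0.05, and on D105 over the other 21 heifers from -0.10 to 0.10, with 0 of 10 at an unadjusted p under 0.05 on both days.

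Nuclear genes of the NCBI table were ranked by how closely their log2 CPM followed the summed level of the 10 genes, as the mean of Pearson's r on D55 and on D105 over 13814 genes. With all heifers included, the genes with the most similar pattern were NSRP1, PRPF38B and LUC7L, which encode splicing-related proteins, PABPN1, a nuclear poly(A)-binding protein, and LOC104973760, an uncharacterised locus. Their r was 0.90, 0.90, 0.89, 0.85 and 0.85 on D55 over 23 heifers, and 0.84, 0.88, 0.93, 0.88 and 0.85 on D105 over the 21 heifers without the pair. NSRP1 was at 187 and 213 CPM in heifers 604 and 664 on D105, against 44.2 to 95.6 in the other 21. PRPF38B was at 391 and 475 CPM against 157 to 293. These levels entered the ranking, so they describe how the genes were picked. When the pair was left out, LUC7L ranked 1, PRPF38B 2, NSRP1 6, PABPN1 9 and LOC104973760 14. None of the 5 belongs to the respiratory chain lists.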

How the data were processed

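RNA of 46 leukocyte libraries (23 heifers, D55 and D105) was sequenced as paired ends. The authors trimmed reads, aligned them with HISAT2 2.1.0 to ARS-UCD1.2 and counted them with HTSeq in union mode; the Ensembl release is not given in the sources used here. The deposited values are raw counts per gene, 1 table on Ensembl and 1 on NCBI genes, with lines for unassigned reads, which were kept out of library sizes and tests. Reads that overlap genes or map to several places go uncounted, which can lower genes with near-identical copies.

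Groups came from the labels. Genes were filtered with filterByExpr (minimum count 10) and tested with edgeR 4.0.16 (TMM factors, quasi-likelihood, Benjamini-Hochberg FDR over all genes), DESeq2 1.42.0 serving as an alternative, in R 4.3.3. Correlations used log2(TMM-scaled CPM + 1), and those tested used 100000 permutations. Correlations among the 10 genes used log2 of the share of gene reads instead. Scripts were tested on simulated data. D55 and D105 libraries of a heifer are paired because they come from the same animal; the paired fit keeps heifer as a block. Shares are percent of reads on Ensembl genes. No 2 libraries had identical counts. The 10 genes, the gene lists and the genes named were chosen with earlier results of these data known: from each nuclear list at most 2 genes that passed, those of largest change, were open to naming in a comparison, beside the 10 genes and the 5 nearest in pattern. SE is the fitted change divided by the root of its test statistic. Sequences of the 10 genes are not printed, as no table used here links them to the identifiers.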

Additional observations from a re-analysis of the deposited data

Results flagged for a closer look

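Of 84 sets of values, each a gene or share within 1 group on 1 day, 7 held a library that lay far from the rest of its group by Dixon's criterion, which chance alone meets in about 1 in 20 sets. The sets are not independent, because the 10 genes move together within a library. AI heifer 517 on D105 held 1.95% of gene reads on ENSBTAG00000043560, with the next AI heifer at 1.27%, and 1.119% on ENSBTAG00000043570, with the next at 0.641%. IVP-LOS heifer 602 on D55 accounted for the other 5: ENSBTAG00000043584 with 0.930% (next 0.731%), ENSBTAG00000043550 with 0.901% (next 0.683%), ENSBTAG00000043558 with 0.829% (next 0.619%), ENSBTAG00000043577 with 0.733% (next 0.594%) and ENSBTAG00000043556 with 0.515% (next 0.392%). Heifers 604 and 664 met the criterion for none of the 10 genes in IVP-LOS on D105, where each has the other as its nearest neighbour.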

How the results depend on the processing

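Counts of the 10 genes called kept to within 1.5 times under all alternatives but 3. The fit of all 46 libraries called 7 in IVP-LOS over gestation, with no share of all genes given for that fit. The D105 relation to the no-feature share fell to 0 once the reads of the 10 genes were taken out. That held with and without 604 and 664, beside 13 and 16 of 12949 genes. The replicate block, which pairs the days of a heifer, called 0 in AI, IVP-Normal and IVP-LOS and in both interactions, so the pairing changed no call. With all counted reads as the denominator the mean shares were 5.46% (AI), 4.65% (IVP-Normal) and 4.37% (IVP-LOS) on D55, and 4.79% (AI), 4.97% (IVP-Normal) and 7.29% (IVP-LOS) on D105. No log2 fold change of the 10 genes in the pair on D105 or in IVP-LOS over gestation changed sign.

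Leaving out heifer 604 or 664 gave 433 to 635 genes called higher on D105 in the NCBI table, against 1954. Over the lists it gave 3 to 9 for complex I, 1 to 2 for complex III, 0 for complex IV, 2 to 4 for complex V, 1 to 3 for the mitochondrial DNA and RNA machinery, 0 to 6 for platelet, 0 to 1 for erythroid and 0 for neutrophil, monocyte, T cell and B cell markers. Among BACKUP libraries alone 3 T cell markers were lower and 6 B cell markers higher. With library sizes alone 3 genes of the machinery list were higher. These alternatives for the lists, the fits with library sizes alone and the fits of IVP-LOS mean shares without the pair were chosen after seeing the data. A pair against 21 heifers gives 1 lone library when either is left out, assumed to vary like the others. The lengths of the 10 genes are unknown here, so their levels were not compared per length, and the library sets limit every comparison of days in AI and IVP-LOS.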

Other observations

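Outside the pair, the nuclear respiratory chain genes followed the 10 genes over heifers to different degrees. Without heifers 604 and 664, the median over each list of the mean correlation with the summed level of the 10 genes was 0.43 for complex I, 0.38 for complex III, 0.35 for complex IV and 0.37 for complex V, against 0.00 over all 13814 genes compared. With all heifers 34 of 37 complex I genes had a positive mean, up to 0.83 in NDUFS5, while NDUFB2 of the same complex was at -0.72. Within complex V, ATP5MPL was at 0.84 and ATP5F1A, a catalytic core subunit, at -0.53. The proteins of mitochondrial DNA and RNA upkeep had a median of 0.08 without the pair, with 18 of 29 positive over all heifers, from 0.69 (FASTK) to -0.71 (FASTKD5). With all heifers, 6869 of the 13814 genes had a positive mean. All 7 platelet, all 8 B cell and all 3 erythroid markers compared had one. So had 4 of 8 T cell, 3 of 7 natural killer, 0 of 7 monocyte and 0 of 5 neutrophil markers. Without the pair the list medians were 0.34 (platelet), 0.14 (B cell), 0.27 (erythroid), 0.13 (T cell), 0.03 (natural killer), -0.31 (monocyte) and -0.17 (neutrophil). The genes named here were chosen after their values were seen. These are descriptions over libraries that share depth and scaling, with no test.

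The 16 other genes of the identifier run that had reads took together between 0.406% and 2.16% of gene reads over the 46 libraries. On D105 heifers 604 and 664 were at 2.16% and 1.94%, and the highest of the other 21 was heifer 517 with 1.19%.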
